A study of Rattus norvegicus with 24 samples.

Results

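The enzymes that carry pyruvate, acetate and branched-chain carbon into the mitochondrial tricarboxylic acid (TCA) cycle were described here in tibialis anterior (TA) muscle of aged rats during repeated disuse. The group was a fixed list of 34 gene symbols, and all 34 were found in the deposited expression table, which paired 14243 rows with 13458 gene symbols. Where a symbol had several rows (Mpc2 and Pdp1, with 2 rows each), the row with the highest mean was taken. Aged (23 ± 1 month) male Fischer 344 rats carried a pump and nerve cuff that delivered tetrodotoxin (TTX), a sodium channel blocker, to the left common peroneal nerve, which silences the nerve to the TA. Left limbs were taken after 6 to 7 d of TTX (atrophy, n = 3), after a further 9 d without TTX (recovery, n = 3) or after a second TTX period of 5 to 6 d (repeated atrophy, n = 3). The right limbs of these 9 animals received no TTX and were pooled as control (n = 9), so every control limb came from an animal whose other leg was or had been silenced. A further 3 sham animals, operated without TTX and labelled with the atrophy, recovery and repeated atrophy time points, gave 3 left and 3 right limbs.

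Pyruvate enters mitochondria through the carrier Mpc1/Mpc2 and is turned into acetyl-CoA by the pyruvate dehydrogenase complex (Pdha1, Pdhb, Dlat, Dld, Pdhx), which the kinases Pdk1 to Pdk4 switch off and the phosphatase subunit Pdp1 switches on. Citrate synthase (Cs) joins acetyl-CoA to oxaloacetate, and the cycle enzymes oxidise it to yield NADH. Malate and aspartate enzymes pass reducing equivalents across the mitochondrial membrane. Skeletal muscle is a main site of branched-chain amino acid use, through the transaminase Bcat2 and the dehydrogenase Bckdha, Bckdhb and Dbt, which the kinase Bckdk switches off.

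Values were read counts scaled to a total of 1000000 per limb (CPM), and tests used log2(CPM + 1) in limma with Benjamini-Hochberg adjustment over all rows. Calls needed a change of 1.2-fold or more together with an adjusted p no higher than 0.05. The read depth inferred from the step between low values was 18.9 to 30.9 M reads per limb (median 26.1 M). A shift common to many genes was present in CPM: the median log2 fold change over 14031 rows was 0.22 in atrophy limbs, 0.02 in recovery limbs and 0.20 in repeated atrophy limbs. Rescaling each limb by trimmed log ratios (TMM) brought these medians near 0, so counts of calls are given on both scales. In control limbs, per kilobase of transcript, Mdh2 (690 CPM per kb), Got2 (531 CPM per kb) and Idh2 (445 CPM per kb) had the highest levels of the group, and Pdk3 (0.534 CPM per kb), Pdk1 (10.9 CPM per kb) and Acss1 (15.2 CPM per kb) the lowest.

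Promoter sequences were available for 29 of the 34 genes, as RefSeq entries on the GRCr8 assembly running from 250 bases before to 50 bases after the annotated start. No entry was found for Idh3a, Bckdha, Acss1, Pc and Pdp1. The promoters of Idh2, Pdk2 and Pdk3 are printed because these genes were among the most changed, with the first transcribed base in capitals.
Idh2 (chr1:143467199-143467498, minus strand): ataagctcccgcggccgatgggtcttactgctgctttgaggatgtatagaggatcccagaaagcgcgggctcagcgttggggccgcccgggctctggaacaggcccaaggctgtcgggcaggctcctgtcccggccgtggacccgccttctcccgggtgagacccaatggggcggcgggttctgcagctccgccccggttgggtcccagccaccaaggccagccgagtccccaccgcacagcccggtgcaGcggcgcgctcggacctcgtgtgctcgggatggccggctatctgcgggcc
Pdk2 (chr10:80483863-80484162, minus strand): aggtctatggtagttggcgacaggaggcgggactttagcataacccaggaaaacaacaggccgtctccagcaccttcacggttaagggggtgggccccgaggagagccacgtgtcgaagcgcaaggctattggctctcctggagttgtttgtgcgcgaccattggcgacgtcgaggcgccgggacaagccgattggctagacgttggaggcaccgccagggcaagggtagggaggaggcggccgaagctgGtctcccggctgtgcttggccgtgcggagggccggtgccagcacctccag
Pdk3 (chrX:62547322-62547621, minus strand): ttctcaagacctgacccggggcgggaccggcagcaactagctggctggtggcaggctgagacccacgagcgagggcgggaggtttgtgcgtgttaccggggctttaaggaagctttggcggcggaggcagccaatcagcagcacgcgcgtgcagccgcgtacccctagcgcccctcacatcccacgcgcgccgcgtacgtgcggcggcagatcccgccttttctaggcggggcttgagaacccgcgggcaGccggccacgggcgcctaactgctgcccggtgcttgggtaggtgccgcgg
These promoters held 28, 24 and 34 CpG dinucleotides and had a GC content of 70.0%, 64.0% and 69.3%. Over the 29 promoters the median GC content was 61.3% and the median number of CpG dinucleotides 22, against 51.7% and 7 over all 33469 promoters.

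Motifs known from mitochondrial and muscle genes were searched on both strands. The oestrogen-related receptor core AAGGTCA was in 0 of 29 promoters and in 4.61% of all 33469, and the longer TNAAGGTCA, which contains it, was in 0 of 29 and in 1.2%. The forkhead motif GTAAACA was in 1 of 29 (Pdhb, at position -235 from the start) and in 3.78% of all promoters. The nuclear respiratory factor 1 motif was in 2 of 29, Dld and Sucla2, and in 4.25% of all promoters. Both are printed with that match in capitals. It began at -7 in Dld and, on the opposite strand, at -39 in Sucla2.
Dld (chr6:53652298-53652597, minus strand): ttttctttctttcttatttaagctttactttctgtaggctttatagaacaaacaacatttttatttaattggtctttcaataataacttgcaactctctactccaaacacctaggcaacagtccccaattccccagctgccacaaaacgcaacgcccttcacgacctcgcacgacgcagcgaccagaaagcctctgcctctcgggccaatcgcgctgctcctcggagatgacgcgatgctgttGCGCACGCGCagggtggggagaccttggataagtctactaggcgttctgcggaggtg
Sucla2 (chr15:55161644-55161943, plus strand): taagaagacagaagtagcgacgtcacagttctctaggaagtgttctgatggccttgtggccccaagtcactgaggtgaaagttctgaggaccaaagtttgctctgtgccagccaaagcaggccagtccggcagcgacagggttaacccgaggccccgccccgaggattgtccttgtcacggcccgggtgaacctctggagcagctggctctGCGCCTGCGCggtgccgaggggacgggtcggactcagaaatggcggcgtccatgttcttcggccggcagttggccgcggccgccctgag
A match describes the letters in this window only, and the window does not reach distant elements.

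Right limbs differed by the time at which the animal was taken, which bears on every comparison with control. The 3 right limbs of the recovery animals lay above all 6 right limbs of the atrophy and repeated atrophy animals for 14 of the 34 genes (Pdhb, Dlat, Pdhx, Pdp1, Cs, Idh2, Idh3g, Ogdh, Dlst, Suclg1, Fh, Mdh2, Mdh1 and Got1) and below them for 0, against 2.91% of 13600 rows above and 8.33% below. Cs was 477 to 513 CPM in the former and 293 to 353 CPM in the latter. Mdh1 was 371 to 434 CPM against 146 to 290 CPM. The same direction appeared in the sham animal labelled with the recovery time, whose 2 limbs lay above all 4 limbs of the other sham animals for 24 of 34 genes, against 7.32% of 14243 rows. Inferred depth was 24.5 to 27.6 M reads in the recovery right limbs and 18.9 to 29.1 M in the other right limbs of TTX animals. It was 22.6 and 20.7 M in the sham animal of the recovery time, the lowest of the sham limbs, whose others had 25.8 to 30.9 M. The parts played by depth and by the day of collection were not tested. Comparisons are therefore given with the 9 control limbs, with the 6 right limbs of the atrophy and repeated atrophy animals, and with a term for the animal, which sets each left limb against the right limb of the same rat.

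**Figure D1:**
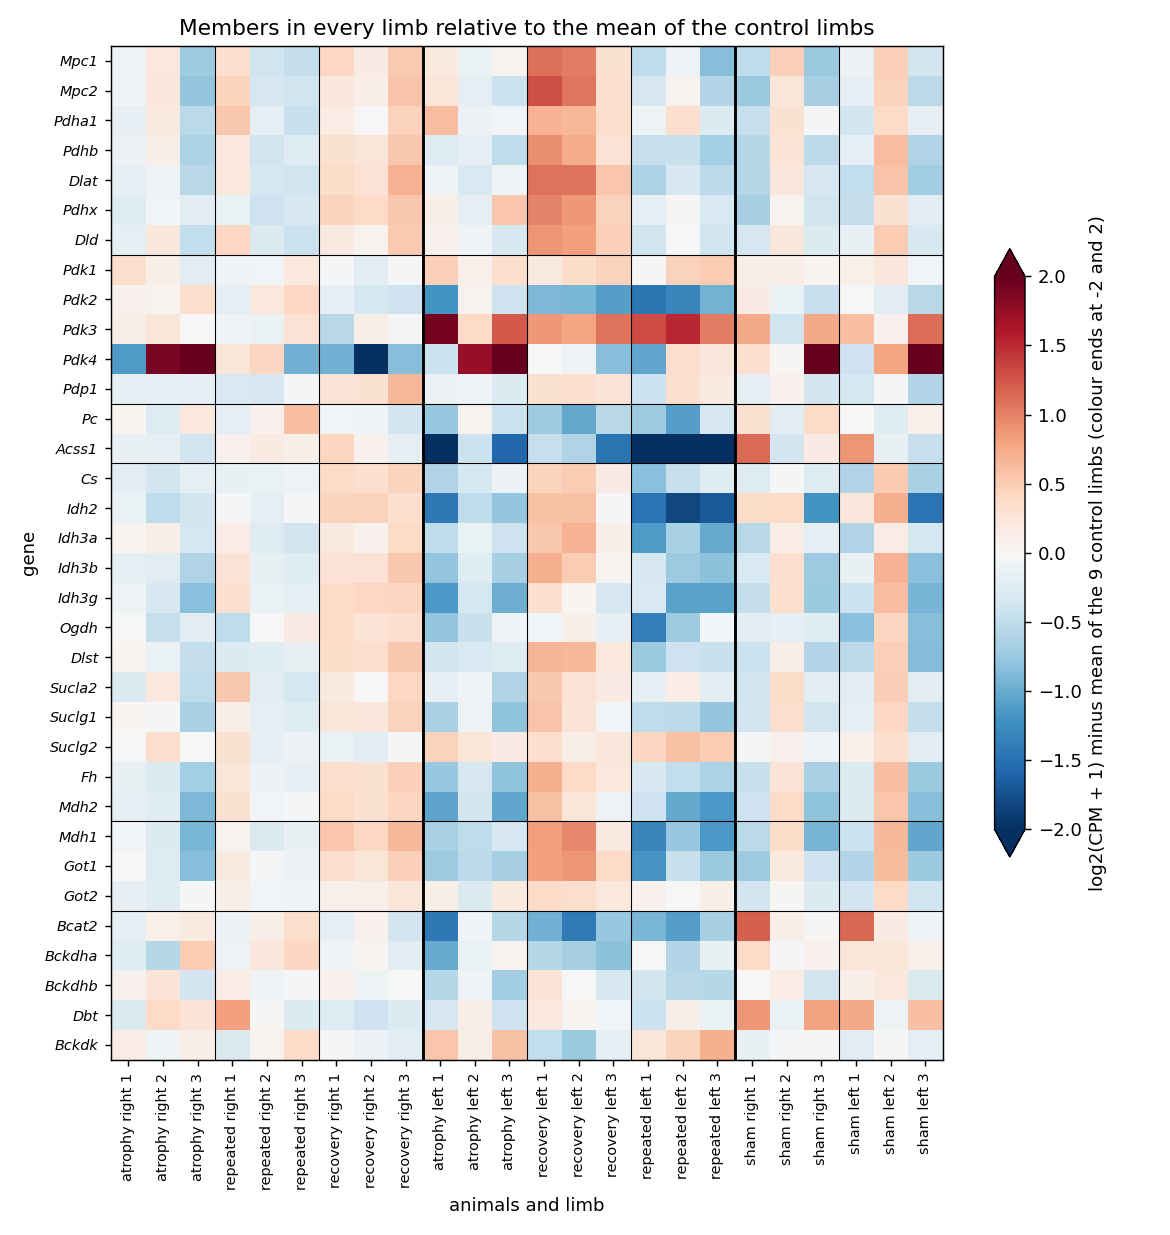
Heat map of log2(CPM + 1) minus the mean of the 9 control limbs for the 34 genes (rows, grouped by role) in all 24 limbs (columns, named by animal group, limb and number), with colour ending at -2 and 2. The right limbs of the recovery animals are redder than the other right limbs in many TCA cycle rows, and the 3 repeated atrophy left limbs are blue for Acss1 and Idh2.

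After repeated atrophy, 16 of 34 genes fell and 3 rose against control, and the median log2 fold change of the 34 was -0.49, with 28 of 34 below 0. Over all rows, 6.24% passed as lower and 28.1% as higher. The falls included 9 of 12 TCA cycle genes, 2 of 3 malate-aspartate genes, both Pc and Acss1, 2 of 5 branched-chain genes and Pdk2, and none of the 7 pyruvate import and pyruvate dehydrogenase complex genes. On the TMM scale, 20 genes fell and 1 rose (all rows: 12.1% lower, 13.1% higher). With the animal as a block, 12 fell and 2 rose (all rows: 5.66% lower, 21.5% higher), and with both block and TMM, 17 fell and 1 rose (all rows lower: 10.3%). Against the 6 right limbs alone, 8 fell and 2 rose, with a median of -0.32 (all rows: 5.06% lower, 19.3% higher).

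Acss1, the mitochondrial acetyl-CoA synthetase that activates acetate, had the largest difference of the group. Its level was 5.02, 5.71 and 6.18 CPM in the repeated atrophy limbs, and 41.1 to 73.1 CPM (median 57.0 CPM) in the control limbs. It was 7.00, 40.0 and 17.4 CPM after atrophy and 39.1, 35.3 and 19.1 CPM after recovery. All 3 repeated atrophy limbs lay below every other limb, sham limbs included (39.0 to 119 CPM). The log2 fold change was -3.05 ± 0.32 (SE), an 8.30-fold difference on the log2(CPM + 1) scale, which ranked number 23 from the lowest of 14031 rows (adjusted p = 1.9e-05, limma). Within animals, left minus right was -3.27, -3.22 and -3.05. The gene lies at chr3:139450383-139500326 on the minus strand in rn7.

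Idh2, the NADP-dependent mitochondrial isocitrate dehydrogenase, followed. Its level was 259.8, 204 and 224 CPM after repeated atrophy against 511 to 999 CPM (median 706 CPM) in control limbs, with no overlap. The gene lies at chr1:134038646-134057970 (minus strand, rn7). The log2 fold change was -1.66 ± 0.23 (adjusted p = 9.1e-05, limma), and left minus right was -1.44, -1.65 and -1.66 in the 3 animals. Sham limbs spanned 260.5 to 1200 CPM, and both limbs of the sham animal labelled with the repeated atrophy time (260.5 and 314 CPM) lay below every control limb. Of the NAD-dependent isocitrate dehydrogenase, the catalytic subunit Idh3a (chr8:54971781-54991083, plus strand, rn7) was 312, 436 and 340 CPM against 523 to 904 CPM, without overlap (-0.93 ± 0.18, adjusted p = 0.0010, limma). Its regulatory partners Idh3b (-0.63, adjusted p = 0.031) and Idh3g (-0.82, adjusted p = 0.020) also fell by the limma test.

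Other falls among the cycle enzymes overlapped with control limbs. Mdh2, the mitochondrial malate dehydrogenase, was 484 ± 142 CPM against 889 ± 229 CPM (SD, -0.86, adjusted p = 0.015, limma). Ogdh (-0.71) and Dlst (-0.54) of the oxoglutarate dehydrogenase complex, and Suclg1 (-0.60) of succinyl-CoA synthetase, passed. Cs was 212, 274 and 318 CPM against 293 to 513 CPM (-0.51 ± 0.19, adjusted p = 0.039, limma). Once the animal was blocked for, Cs (-0.39, adjusted p = 0.11), Ogdh (-0.60, 0.057), Dlst (-0.31, 0.24) and Suclg1 (-0.51, 0.070) no longer passed. Against the 6 right limbs, Cs, Idh3b, Idh3g, Ogdh, Dlst, Suclg1 and Mdh2 no longer passed, nor did Got1 and Bckdk. Fh (-0.48, adjusted p = 0.076) and the ADP-forming subunit Sucla2 (-0.09) did not pass, although Fh passed as lower on the TMM scale.

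Suclg2, the GTP-forming counterpart of Sucla2, went the other way. It was 130, 145 and 136 CPM after repeated atrophy and 82.9 to 123 CPM in control limbs, without overlap. The log2 fold change was 0.51 ± 0.13 (adjusted p = 0.0051, limma), but after TMM rescaling it was 0.12 (adjusted p = 0.52). It was 133, 114 and 108 CPM after atrophy and 122, 106 and 113 CPM after recovery.

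The cytosolic shuttle enzymes Mdh1 and Got1 fell while mitochondrial Got2 did not pass. Mdh1 (chr14:95630625-95645921, minus strand, rn7) was 111, 163 and 125 CPM against 146 to 434 CPM, and only the repeated atrophy limb at 163 CPM reached into the control range (-1.07 ± 0.26, adjusted p = 0.0043, limma). Both limbs of the sham animal labelled with the repeated atrophy time had 134 and 144 CPM of Mdh1. Got1 was 333 ± 81.5 CPM against 582 ± 142 CPM (SD, -0.79, adjusted p = 0.011, limma). Got2, one of the most abundant transcripts of the group per kilobase, was 1306 ± 60.1 CPM against 1252 ± 134 CPM (0.07).

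Of the 4 pyruvate dehydrogenase kinases, Pdk2 fell, Pdk3 rose, and Pdk1 and Pdk4 did not pass. Pdk2 (chr10:79972553-79987075, minus strand, rn7) was 215, 237 and 307 CPM after repeated atrophy and 445 to 785 CPM in control limbs, without overlap, and sham limbs (400 to 664 CPM) were also higher. The log2 fold change was -1.24 ± 0.22 (adjusted p = 0.00056, limma), and left minus right was -1.25, -1.52 and -1.35. Pdk3 (chrX:58486554-58553558, minus strand, rn7), the kinase with the lowest level per kilobase, was 4.31, 5.14 and 3.40 CPM against 0.472 to 1.64 CPM (1.28 ± 0.24, adjusted p = 0.00067, limma). Sham limbs had 0.629 to 3.67 CPM of Pdk3 and so reached into the range of the treated limbs.

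Pdk1 was 17.2, 23.9 and 24.7 CPM against 14.3 to 21.9 CPM (0.33, adjusted p = 0.10, limma). Pdk4 was 24.95, 66.4 and 61.2 CPM against 11.8 to 555 CPM, and its control limbs alone differed 46.9-fold (-0.15 ± 0.86, adjusted p = 0.92, limma). The phosphatase subunit Pdp1 differed by 0.02. Of the pyruvate importers and complex subunits, the log2 fold changes ran from -0.53 for Pdhb to -0.01 for Pdha1, the phosphorylated subunit, and 3 of them (Pdhb, Dlat and Mpc1) passed as lower on the TMM scale. Pc, pyruvate carboxylase, fell from 60.7 ± 13.4 to 36.6 ± 10.1 CPM (SD, -0.72, adjusted p = 0.011, limma).

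Of the branched-chain enzymes, Bcat2 (chr1:96042671-96060009, plus strand, rn7) was 38.5, 33.7 and 45.9 CPM after repeated atrophy against 55.7 to 93.9 CPM, without overlap (-0.89 ± 0.22, adjusted p = 0.0047, limma). Bckdhb, the beta subunit of the dehydrogenase, also fell (-0.50 ± 0.15, adjusted p = 0.016). The kinase Bckdk rose from 227 ± 33.6 to 313 ± 51.3 CPM (SD, 0.46, adjusted p = 0.030), but not after TMM rescaling (0.08, adjusted p = 0.69) or once the animal was blocked for (adjusted p = 0.072). Bckdha (-0.24) and Dbt (-0.15) did not pass by the limma test.

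**Figure D2:**
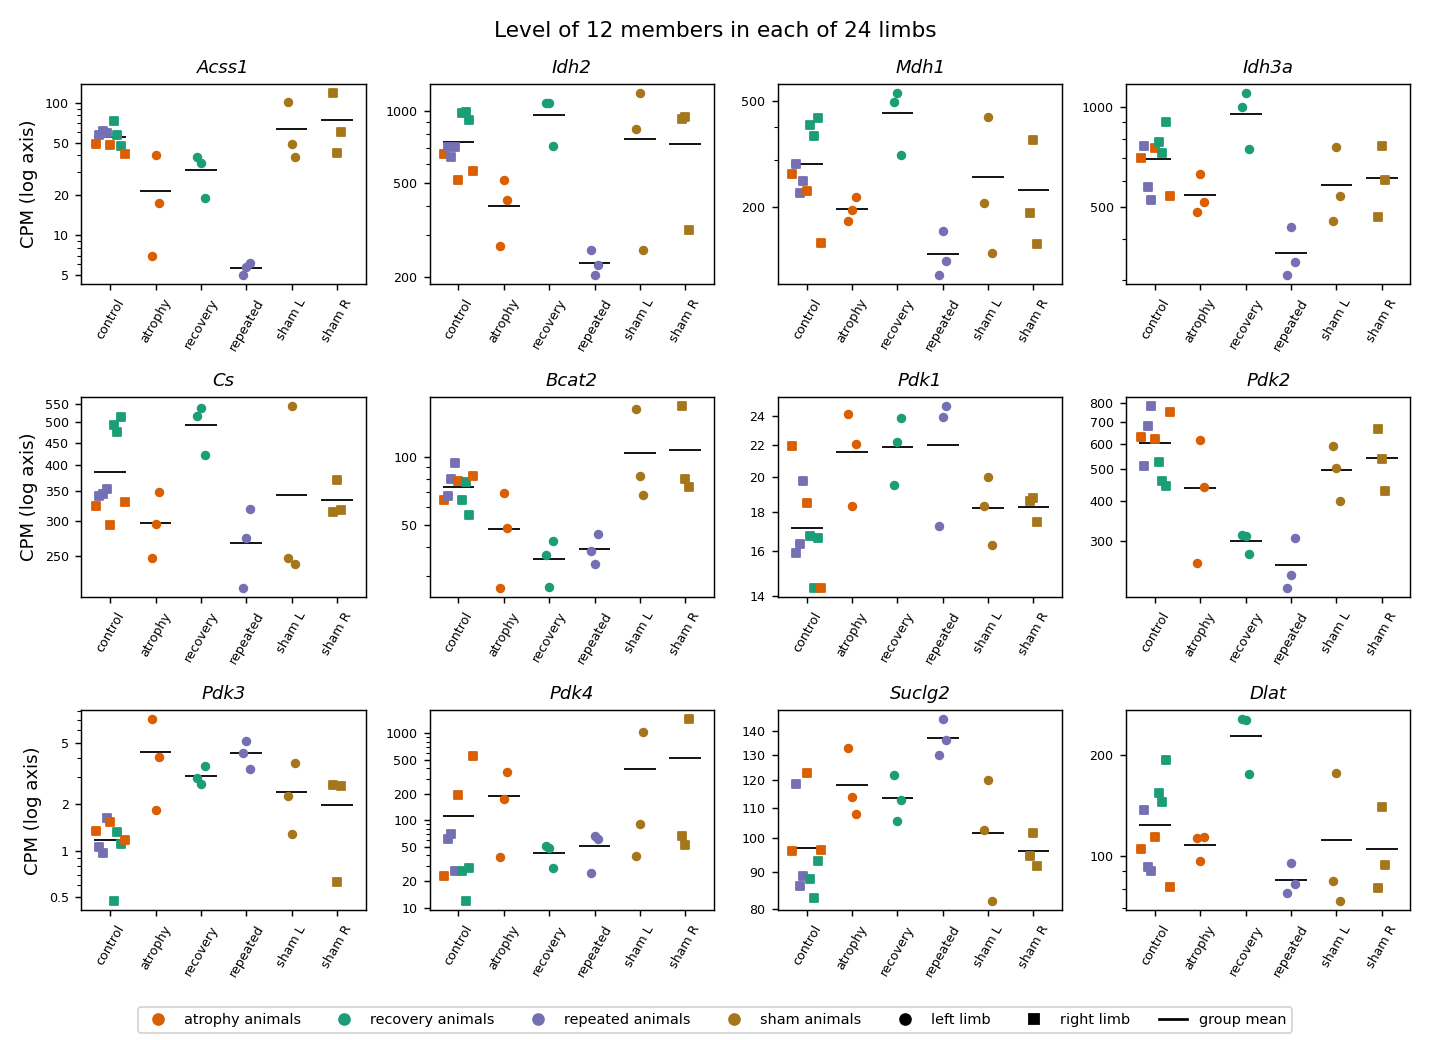
Level in CPM (log axis) of 12 of the genes in each of the 24 limbs, by group, with colour for the animal group, circles for left and squares for right limbs, and a line at the group mean. The 3 repeated atrophy limbs have 5.02 to 6.18 CPM of Acss1, below all other limbs, whereas the Pdk4 values of the control limbs span 11.8 to 555 CPM.

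A set of 7 calls after repeated atrophy (Pdk2, Pdk3, Acss1, Idh2, Idh3a, Mdh1 and Bcat2) held under the 38 other settings, 18 of which left out a limb, except that Pdk3 was not tested where rows needed a mean of at least 10 CPM. Leaving out the second repeated atrophy limb reduced the calls from 19 to 9 (2 higher, 7 lower), and leaving out the third reduced them to 12. Without overlap between limbs, 5 genes lay below every control limb (Pdk2, Acss1, Idh2, Idh3a and Bcat2) against 3.87% of all rows, and 2 above (Pdk3 and Suclg2) against 16.5%. The summed level of 10 muscle fibre markers was 112494 to 140827 CPM in these limbs and 168029 to 226303 CPM in control limbs. Of the 10, Actn3 (-2.06) and Myh7 (-2.34) fell, Mb, which encodes myoglobin, rose (11506, 17790 and 17929 CPM against 6206 to 8929 CPM, 1.01), and 7 did not pass, although Myh1 (16820 to 28205 against 30573 to 60591 CPM) and Myh4 (35100 to 42515 against 47506 to 70312 CPM) lay below every control limb. The 3 satellite cell markers summed to 39.1 to 68.9 CPM against 5.75 to 14.1 CPM. Most of that sum was Myf5 (37.6, 60.8 and 32.0 CPM against 1.98 to 11.6 CPM), which was also 68.6 and 52.0 CPM in the limbs of 1 sham animal, while Pax7 and Vcam1 overlapped with control limbs. No gene of any marker list was at 0 in every limb. The part of these markers in the falls was not tested, and in whole muscle fewer cells of a type cannot be told apart from less RNA per cell.

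**Figure D3:**
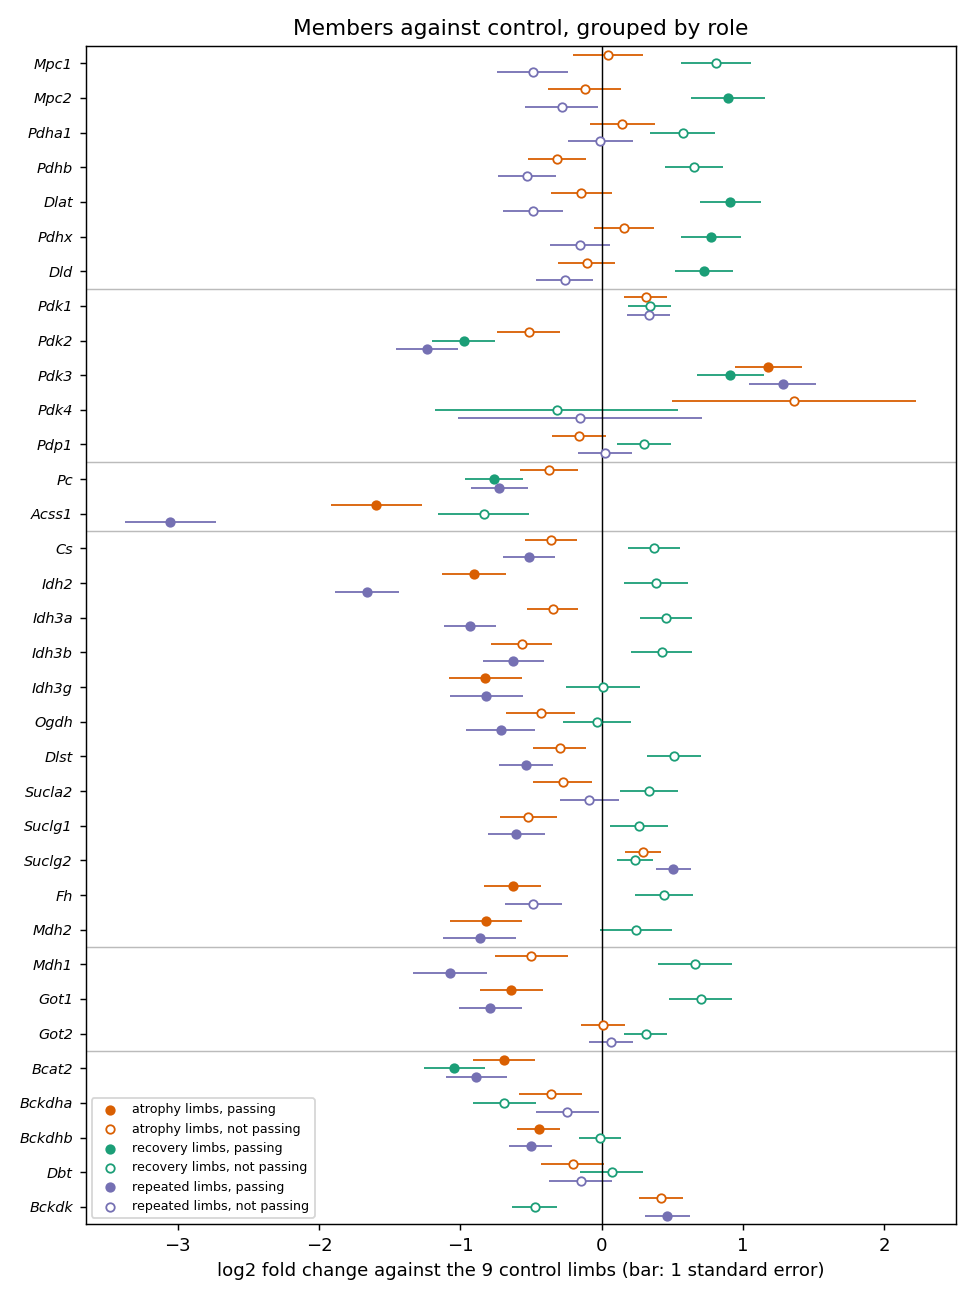
Log2 fold change against the 9 control limbs (bars, 1 standard error) for the 34 genes, grouped by role, after atrophy, recovery and repeated atrophy, with filled points for genes that passed and open points for genes that did not. Acss1 is farthest to the left at -3.05 after repeated atrophy, and the pyruvate dehydrogenase complex genes lie to the right of 0 after recovery.

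After the first TTX period, 8 of 34 genes fell and 1 rose, with a median of -0.33 (all rows: 2.33% lower, 20.3% higher). The 8 were Acss1 (-1.59 ± 0.32, adjusted p = 0.0065), Idh2 (-0.90 ± 0.23, adjusted p = 0.012), Idh3g (-0.82), Mdh2 (-0.82), Bcat2 (-0.69), Got1 (-0.64), Fh (-0.63) and Bckdhb (-0.44), and the rise was Pdk3 (1.18 ± 0.24, adjusted p = 0.0065) by the limma test. TMM rescaling gave 13 lower and 1 higher (all rows lower: 5.04%). The calls rested on the first and the third limbs: 0 remained when either was left out, whereas leaving out the second gave 12. The share of all rows is not given for fits with a limb left out, in this or the other comparisons. Such losses may therefore not be particular to these genes. With the animal as a block 0 of 34 passed, as did 0.0% of all rows, and 7 had an unadjusted p under 0.05. No share of all rows is given for counts at an unadjusted p, here or below. The block left differences of -0.56 for Idh2, -0.40 for Idh3g, -0.38 for Mdh2, -0.27 for Got1 and -0.26 for Fh. Those of Acss1 (-1.36), Bcat2 (-0.72), Bckdhb (-0.43) and Pdk3 (1.06) moved less. Against the 6 right limbs 1 rose and 1 fell (either direction over all rows: 3.33%).

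The second atrophy limb was the least changed. Its Acss1 was 40.0 CPM against 7.00 and 17.4 CPM in the other two, its Pdk2 was 616 CPM against 257 and 442 CPM, and its Idh2 was 511 CPM against 269 and 421 CPM. Within that animal, left minus right was -0.27 for Acss1 and -0.01 for Pdk2, compared with -2.62 and -1.29 in the first animal. The summed muscle fibre markers were 178474 CPM in the highest atrophy limb and 86067 CPM in the lowest. The satellite cell marker Myf5 was 45.7, 7.18 and 86.0 CPM in the atrophy limbs against 1.98 to 11.6 CPM in control limbs. Pax7 and Vcam1 overlapped with control limbs. The part of these markers in the differences between limbs was not tested. Pdk3 lay above every control limb in all 3 atrophy limbs (4.75% of all rows), and Acss1 and Idh2 lay below (0.52% of all rows), Idh2 by a narrow margin (510.7 against 511.1 CPM). Pdk3 was 7.07, 1.84 and 4.03 CPM after atrophy, and Pdk1 was 24.2, 18.3 and 22.1 CPM (0.31, adjusted p = 0.15, limma). Bcat2 was 26.5, 69.4 and 48.8 CPM, and Idh3a, which did not pass, was 483, 629 and 516 CPM. Cs was 248, 296 and 348 CPM and did not pass (-0.36, adjusted p = 0.17, limma).

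After 9 d without TTX, 5 genes were higher and 3 lower than control, with a median of 0.34 (all rows: 4.4% higher, 3.33% lower). The rises included 4 of the 7 import and complex genes: Mpc2 (0.89 ± 0.26, adjusted p = 0.042), Dlat, the acetyltransferase core (0.91 ± 0.22, adjusted p = 0.018), its binding partner Pdhx (0.78, adjusted p = 0.034) and Dld (0.73, adjusted p = 0.037), all by limma. With the animal as a block these 4 differences were 0.59, 0.46, 0.31 and 0.47, and in the third recovery animal the left limb was below the right for all 4 (-0.25, -0.13, -0.08 and -0.04). None of the 12 TCA cycle genes passed in either direction, with a median of 0.35. Pdk3 was higher (2.94, 2.7 and 3.55 CPM, 0.91 ± 0.24, adjusted p = 0.027, limma). Lower were Pdk2 (314, 312 and 274 CPM, -0.98 ± 0.22, adjusted p = 0.015), Bcat2 (36.9, 26.9 and 42.8 CPM, -1.04 ± 0.22, adjusted p = 0.0098) and Pc (-0.76, adjusted p = 0.030). Acss1 was 39.1, 35.3 and 19.1 CPM, below every control limb, but did not pass (-0.84 ± 0.32, adjusted p = 0.11). Idh2 was 1085, 1090 and 715 CPM, Idh3a 1001, 1107 and 749.8 CPM, and Cs 517, 538 and 422 CPM, all with overlap. Pdk1 was 19.5, 22.2 and 23.9 CPM, and Pdk4 was 51.5, 48.6 and 28.5 CPM.

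These recovery calls depended on the control limbs used. Against the 6 right limbs, 12 rose and 3 fell, with a median of 0.47 (all rows: 4.7% higher, 5.26% lower), whereas with the animal as a block 0 of 34 passed (0.0641% of all rows in either direction) and 9 had an unadjusted p under 0.05. Under the block the differences were 1.07 for Pdk3, -0.89 for Bcat2, -0.67 for Pdk2 and -0.59 for Pc. TMM rescaling gave 3 higher and 4 lower (all rows: 6.41% higher, 5.62% lower). Leaving out the first or the second recovery limb left 1 call, and the third 3. Without control limb 1, 3 or 4, Mpc2, Pdhx and Dld no longer passed. Pdk3 lay above every control limb (5.57% of all rows), and Pdk2, Pc, Acss1 and Bcat2 lay below (4.84%). The fibroblast marker sum was 1022 to 1918 CPM in recovery limbs against 194 to 528 CPM in control limbs, and 4 of its 5 genes rose. The leukocyte marker sum was 57.8 to 117 CPM against 19.7 to 78.3 CPM. Of its 5 genes, Adgre1 (14.02, 8.43 and 18.04 CPM against at most 5.97 CPM) and Cd68 (7.69, 4.58 and 12.0 CPM against at most 4.37 CPM) rose. The part of either list in the recovery values was not tested.

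Left limbs were also compared directly between times. Both comparisons hold the same 3 recovery limbs, with opposite sign, so their directions are not independent. From atrophy to recovery 14 of 34 genes rose and 1 fell, with a median of 0.67 (all rows: 3.34% higher, 14.5% lower). The largest rises were in Got1 (1.34 ± 0.27, adjusted p = 0.0079) and Idh2 (1.29 ± 0.28, adjusted p = 0.0090), the only members that kept the call whichever limb was left out, and the fall was in Bckdk (-0.89 ± 0.19, adjusted p = 0.0090) by the limma test. Without the third atrophy limb 2 genes passed. From recovery to repeated atrophy 17 fell and 1 rose, with a median of -0.85 (all rows: 6.29% lower, 21% higher). Acss1 (-2.22 ± 0.39, adjusted p = 0.0015), Idh2 (-2.05 ± 0.28, adjusted p = 0.00036), Mdh1 (-1.73 ± 0.32, adjusted p = 0.0018) and Got1 (-1.49 ± 0.27, adjusted p = 0.0018) fell most by the limma test, together with 6 of the 7 import and complex genes, among them Dlat (-1.40) and Mpc1 (-1.30). The rise was in Bckdk (0.94 ± 0.19, adjusted p = 0.0032).

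On the TMM scale, 18 genes rose from atrophy to recovery (all rows higher: 5.9%) and 21 fell from recovery to repeated atrophy (all rows lower: 11.6%). With the animal as a block, 0 of 34 passed in either comparison (0.0143% and 0.0855% of all rows). Of the 34, 1 and 13 genes had an unadjusted p under 0.05. The shares in brackets are of adjusted calls, so they are no measure for these unadjusted counts. From atrophy to recovery the blocked differences were 0.61 for Got1, 0.53 for Idh2 and -0.71 for Bckdk. From recovery to repeated atrophy they were -2.24 for Acss1, -1.55 for Idh2, -1.15 for Got1, -1.07 for Mdh1, -0.76 for Dlat, -0.76 for Mpc1 and 0.76 for Bckdk. These blocked values compare how far each left limb departed from its own right limb, and the right limbs of the recovery animals were themselves higher for 14 of the genes.

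Between the second TTX period and the first, 0 of 34 genes passed (0.0356% of all rows did), and 4 had an unadjusted p under 0.05, which does not show that the periods were alike. These were Acss1 (-1.46, adjusted p = 0.28), Idh2 (-0.76, adjusted p = 0.59), Pdk2 (-0.72) and Idh3a (-0.59), all lower after repeated atrophy by limma. With the animal as a block Acss1 was -1.82 (adjusted p = 0.77, limma). Acss1 passed when the first atrophy limb was left out (-2.05, adjusted p = 0.0094, limma). That limb had 7.00 CPM of Acss1, the nearest to the repeated atrophy limbs, so leaving it out widens the difference. Sham surgery gave 0 of 34 calls against control (all rows: 0.0%), with only Pdk3 at an unadjusted p under 0.05 (0.60, adjusted p = 0.30, limma). Between the left and right limbs of sham animals it gave 0 of 34 (all rows: 0.0%), with only Mpc2 at an unadjusted p under 0.05 (0.30, adjusted p = 0.94, limma).

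Within-animal differences were also counted, which need no pooled control. Left was below right in all 3 animals for 18 of 34 genes after repeated atrophy (13.5% of all rows), 12 after atrophy (7.59%), 7 after recovery (14.9%) and 4 in sham animals (9.34%). It was above right in all 3 for 4, 2, 5 and 3 genes in the same order (40.6%, 25.5%, 29.8% and 15.1% of all rows). After repeated atrophy, rescaling raised the 18 to 27 by TMM (24.8% of all rows) and to 28 by median of ratios (24.9%). Rescaled counts are given for this group only, so they are not to be set beside the 12, 7 and 4 of the others. The median over the 34 genes of the mean difference was -0.39 after repeated atrophy, -0.11 after atrophy, 0.11 after recovery and 0.05 in sham animals. For Cs it was -0.68, -0.33 and -0.15 after repeated atrophy.

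Ratios of functionally linked members within a limb were taken on the log2(CPM + 1) scale, where the added 1 CPM draws in the ratios of low genes such as Acss1. Scaling a limb as a whole cancels in a ratio apart from that added value. Of 13 pairs in 3 conditions (39 exact two-sided permutation tests over 220 splits, smallest possible p = 0.00455), 8 passed after Benjamini-Hochberg adjustment. Leaving out any 1 limb of a condition ended each of that condition's ratio calls (0 to 5 passed in all). Fewer splits remain with a limb left out, so the smallest possible p is higher. That loss therefore says little about the ratios themselves. With 12 right limbs as control, 14 passed. The acetate enzyme Acss1 relative to Cs was 5.81-fold lower after repeated atrophy (-2.54 on the log2 scale, adjusted p = 0.0355, exact permutation test) and 2.31-fold lower after recovery (-1.21, adjusted p = 0.0355), with no overlap with control in either. These folds are on the CPM + 1 scale, and with 0.1 CPM added the repeated atrophy difference was larger. Between the limbs of an animal, the Acss1:Cs difference was -2.79 ± 0.18 after repeated atrophy and -0.93 ± 0.065 after recovery (SD, n = 3). Pdk2 relative to its substrate Pdha1 was 2.93-fold lower after recovery (-1.55, adjusted p = 0.0355, exact permutation test), without overlap, and 2.34-fold lower after repeated atrophy (adjusted p = 0.0591, exact permutation test).

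Cytosolic to mitochondrial aspartate aminotransferase (Got1:Got2) was lower after atrophy (-0.65) and after repeated atrophy (-0.85), both at an adjusted p of 0.0443 by the exact permutation test. Idh2:Idh3a was lower after repeated atrophy (-0.73, adjusted p = 0.0443, exact permutation test), Mpc1:Mpc2 was lower after repeated atrophy (-0.21, adjusted p = 0.0355) and Mdh1:Mdh2 was higher after recovery (0.42, adjusted p = 0.0355). Sucla2:Suclg2 was 0.57 lower after atrophy and 0.60 lower after repeated atrophy on the log2 scale and did not pass (adjusted p = 0.0591 in both, exact permutation test). Between the limbs of an animal no test of the ratios was run. The mean difference (± SD) there was smaller for several of these ratios. It was -0.42 ± 0.50 for Got1:Got2 after atrophy and -0.12 ± 0.055 for Mpc1:Mpc2 after repeated atrophy. After recovery it was 0.25 ± 0.31 for Mdh1:Mdh2 and -1.04 ± 0.39 for Pdk2:Pdha1. For Sucla2:Suclg2 after atrophy it was -0.26 ± 0.081. It was -0.87 ± 0.42 for Got1:Got2 and -0.81 ± 0.59 for Idh2:Idh3a after repeated atrophy. The 3 conditions share their control limbs.

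Pdk4, the kinase known to follow fasting and fatty acid supply, varied widely between animals. In the right limbs it was 23.2, 196 and 555 CPM in the atrophy animals, 61.9, 70.9 and 26.3 CPM in the repeated atrophy animals, and 26.2, 11.8 and 28.3 CPM in the recovery animals. The left limbs of the atrophy animals had 38.3, 176 and 364 CPM in the same order, and the sham animal labelled with the repeated atrophy time had 1049 CPM on the left and 1447 CPM on the right. Across 12 animals the left and right levels on the log2 scale had Pearson r = 0.89 (permutation p = 0.00049, adjusted p = 0.0149 over the 34 genes) and Spearman rho = 0.63 (permutation p = 0.0328, adjusted p = 0.0859). Without the 2 animals farthest from the median, r was 0.54, so the relation rests largely on those animals. Of the 34 genes, 15 had an adjusted p of at most 0.05 for r, and the median r was 0.60. For most cycle enzymes no single r is given, since the animals taken at the recovery time stand apart.

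**Figure D4:**
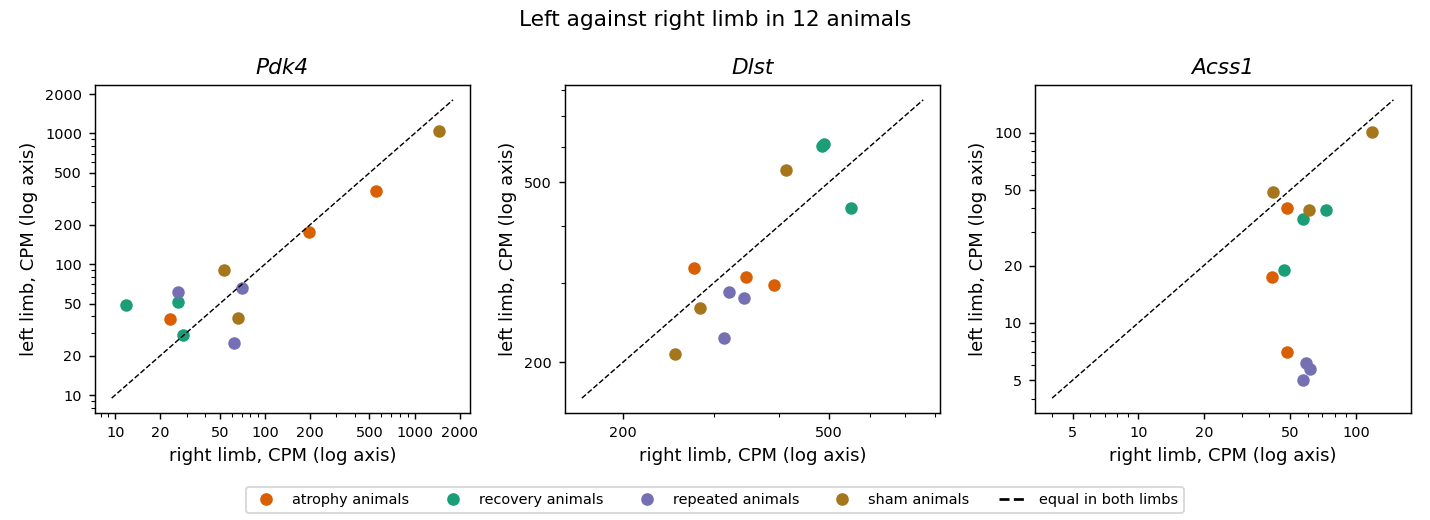
Left against right limb level in CPM (log axes) for Pdk4, Dlst and Acss1, 1 point per animal (12 animals), coloured by animal group, with a dashed line where both limbs are equal. Pdk4 spans 11.8 to 1447 CPM in the right limb. The animal at 11.8 CPM lies above the line with 48.6 CPM on the left. The Dlst points of the recovery animals have the highest right limb values (485 to 551 CPM). On the left, a sham animal (532 CPM) lies above the third recovery animal (439 CPM). The repeated atrophy points of Acss1 lie far below the line.

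Other genes of the same pathways were read from a list of 59, of which 54 were in the table. After repeated atrophy 12 fell and 3 rose, with a median of -0.13, and on the TMM scale 23 fell and 2 rose, beside the shares of all rows given above for each scale. The largest falls were in Gpt2, the mitochondrial alanine transaminase (90.3 ± 42.5 against 221 ± 81.0 CPM, -1.27 ± 0.47, adjusted p = 0.044), the malic enzyme Me3 (16.6 ± 6.77 against 39.9 ± 7.56 CPM, -1.26 ± 0.30, adjusted p = 0.0040) and lactate dehydrogenase Ldha (1204 ± 57.0 against 2937 ± 676 CPM, -1.25 ± 0.26, adjusted p = 0.0015) by the limma test. The largest rises were in the NAD-dependent malic enzyme Me2 (27.5 ± 4.25 against 6.04 ± 2.27 CPM, 2.06 ± 0.33, adjusted p = 0.00026), the cytosolic aconitase Aco1 (0.80 ± 0.20, adjusted p = 0.0045) and the citrate carrier Slc25a1 (0.55 ± 0.21, adjusted p = 0.047, with adjusted p = 0.31 on the TMM scale and 0.42 with the animal as a block). After atrophy 7 of the 54 fell and 3 rose (all rows: 2.33% lower, 20.3% higher), and after recovery 1 fell and 2 rose (all rows: 3.33% lower, 4.4% higher).

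Genes of neighbouring pathways were counted in the same way. After repeated atrophy 14 of 17 glycolysis genes fell and 2 rose (median -1.56), 4 of 17 fatty acid oxidation genes fell and 0 rose (median 0.03), and 8 of 23 complex I genes fell and 1 rose (median -0.36), beside 6.24% of all rows lower and 28.1% higher. On the TMM scale, 15, 7 and 10 of them fell and 1, 0 and 0 rose, with medians of -1.94, -0.35 and -0.74, beside 12.1% of all rows lower and 13.1% higher. After atrophy the medians were -1.15, 0.01 and -0.22, with 12, 1 and 2 genes lower (12, 3 and 5 on the TMM scale), beside 2.33% of all rows and 5.04% on the TMM scale. After recovery they were 0.19, 0.39 and 0.48, with 0, 1 and 3 genes higher (0, 1 and 0 on the TMM scale), beside 4.4% and 6.41% of all rows. The differences between these lists were not tested.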

How the data were processed

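RNA-seq libraries of rat TA were sequenced as paired-end reads. Per the study's methods and the submitters' processing notes, contaminant reads were removed with Bowtie2 2.2.5 and the others aligned to rn7 with STAR in Partek Flow, and the authors' own normalisation and tests used DESeq2. The authors deposited 1 table of normalised values, and its columns each sum to 1000000, so they were taken as CPM (counts scaled to that total). Of 27 value columns, 24 matched a sample label and 3 were not used. Of 14271 rows, 28 exact duplicates were dropped. Between 87.5% and 89.6% of low values per limb were whole multiples of a common step (tolerance 0.02), too few for reads to be recovered, so no count test was run. The largest step was 0.053 CPM, against Pdk3 values near 1 CPM in control limbs.

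The 4 groups (18 limbs) were fitted in 1 model with limma 3.58.1 (R 4.3.3, trend) on log2(CPM + 1) over 14031 rows above 0 in at least 3 limbs. The fold change and adjusted p thresholds (1.2 and 0.05) follow the study. On simulated data for repeated atrophy against control (13984 rows, 200 changed), 60.5% of changed genes were recovered (11.9% at 1.5-fold, 70.1% at 2-fold and 100% at 4-fold), with 3 false calls of 124. Labels give the animal of each limb, which pairs left with right. Over 10619 rows, left and right deviations had a median correlation of 0.06 in the 9 TTX animals (-0.32 to 0.53, 4 over 0.1) and 0.62 to 0.84 in the 3 sham animals. Left limbs of a group came from different animals. Ratios, correlations and figures used Python 3.11.15, scipy 1.17.1 and matplotlib 3.10.9, and correlations used 100000 permutations. Alternatives changed pseudocount, scaling, filter, control limbs, animal term and limbs left out. The control restricted to 6 right limbs and the rescaled ratios and within-animal differences were chosen after seeing the data.

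The 34 members, the other lists and the markers were chosen with earlier results of these data known, so no list was tested. Values in every treated limb are given for members that passed after repeated atrophy without overlap with control, for all Pdk genes, Cs and Acss1, and values for Mdh1, Dlst and others were added after they were seen. Of the other pathway genes, the 3 largest rises and falls that passed after repeated atrophy are named.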

Additional observations from a re-analysis of the deposited data

Results flagged for a closer look

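Pdk4 in the third atrophy animal's right limb was 555.2 CPM, the highest of the 9 control limbs. Its gap to the next limb was 0.66 of the whole range in CPM, above Dixon's 95% critical value for 9 samples. The gap was not taken on the log2 scale used in the tests, where high values lie closer together. This was the single such value among the 34 genes examined in the control limbs. As chance flags about 1 in 20 groups, 1 flag among 34 is not more than chance would give. The left limb of that animal had 364 CPM, also the highest of the left TTX limbs.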

How the results depend on the processing

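Each comparison was recomputed under other settings, and over all genes and settings 7644 values kept their side of the threshold, 136 gained a call, 370 lost one and 0 changed sign after a call. Counts of the 34 genes that passed moved as follows. For atrophy against control, 9 became 14 under TMM, median of ratios or quantile rescaling, 5 with 12 right limbs or with only the groups compared in the fit, 2 with the 6 right limbs, and 0 with own right limbs. For recovery against control, 8 became 0 with own right limbs and 15 with the 6 right limbs. For repeated atrophy against control, 19 became 10 with the 6 right limbs. With the replicate block (the animal of each limb), alone or with TMM rescaling, 0 passed in atrophy or recovery against control, recovery against atrophy and repeated atrophy against recovery, while repeated atrophy against control gave 14 and 18. Ratios that passed went from 8 to 14 with 12 right limbs, and genes lower in 3 of 3 repeated atrophy animals from 18 to 28 under median of ratios. Leaving out 1 limb gave 0 to 12 calls for atrophy, 1 to 12 for recovery and 9 to 22 for repeated atrophy against control, 2 to 17 for recovery against atrophy, 13 to 20 for repeated atrophy against recovery, 0 to 1 for repeated atrophy against atrophy, 0 in both sham comparisons and 0 to 5 for ratios. Apart from those shown by fewer limbs, causes were not tested. With 3 limbs a group, changes near 1.5-fold were recovered in 11.9% of simulated cases, so genes that did not pass may still differ.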
